A study of Mus musculus and Homo sapiens with 19 samples.

Results

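The 36 genes described here encode aminoacyl-tRNA synthetases, 20 of the cytosolic and 16 of the mitochondrial enzymes. The rule used gene symbols and no measured value, but the members were chosen with earlier results of these data known. A row was taken when its symbol was a member's name or that name with a final 1. Symbols were in upper case in the human table, and names ending in 2 formed the mitochondrial group. All 36 were found among the 24421 genes of the 4T1 knockdown table, the 57992 of the MDA-MB-231 table and the 55573 of the co-culture tables, and all 36 passed the filter on low counts in both replicated experiments.

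An aminoacyl-tRNA synthetase joins an amino acid to its tRNA, which is the step that fixes the meaning of the genetic code, and most amino acids have 1 enzyme for the cytosol and another, from a separate nuclear gene, for mitochondria. Gars and Kars supply both compartments from 1 gene each, and Eprs joins glutamate and proline activities in 1 protein. Several cytosolic synthetases are given as targets of ATF4, the transcription factor made when amino acids run short and uncharged tRNA accumulates. PHGDH, the enzyme the study varied, starts serine synthesis, and serine is in turn a source of glycine, so that Sars, Sars2 and Gars charge the amino acids nearest to it.

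The series held 19 libraries of cultured lines. 4T1 and EMT6.5 are mouse mammary tumour lines, MDA-MB-231 is a human breast cancer line, and Bend3 is a mouse endothelial line. In the knockdown experiment 3 libraries of 4T1 carried a scrambled hairpin (shSCR) and 3 a hairpin against PHGDH (shPHGDH), both in the pLKO.1 vector. In MDA-MB-231, 3 control libraries were set beside 3 labelled as overexpressing PHGDH from pLHCX. The remaining 7 libraries were single: 4T1, EMT6.5 and Bend3 each alone, and 4T1, EMT6.5 and both Bend3 partners sorted by FACS out of tumour and endothelial co-cultures. No source used here says that numbered replicates were separate cultures, so p-values measure the spread between libraries, which may be technical. In RNA of whole cultures, fewer expressing cells and less RNA per cell cannot be told apart.

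Between 12.7 and 20.5 M counts were assigned to genes in the knockdown libraries, 19.5 to 23.8 M in MDA-MB-231 and 4.27 to 7.67 M in co-culture, where 34.0% to 39.8% of all entries lay in genes. Phgdh was at 168 ± 4.58 CPM in shSCR and at 20.9 ± 0.746 CPM in shPHGDH (SD, n = 3 each). CPM is counts per M assigned counts, with library totals scaled by edgeR's TMM factors. In MDA-MB-231, PHGDH went against the label, at 16.5 ± 1.57 CPM in control and 5.41 ± 0.773 CPM in the libraries labelled PHGDH-overexpressing (SD, n = 3 each). Bend3 held the endothelial markers Pecam1 (2389 to 3663 CPM) and Cdh5 (639 to 884 CPM), and 4T1 alone held all 6 epithelial markers. EMT6.5 alone held Krt8 and Krt18 (154 and 386 CPM), whereas Epcam and Cdh1 were near 0 (0.247 and 0.124 CPM).

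In 4T1 with the hairpin against PHGDH the cytosolic synthetases differed by list. The split into ATF4 targets and others was chosen with earlier results of these data known, so it is not independent of these counts. Of the 11 listed as ATF4 targets, 7 rose and none of them fell: Tars, Wars, Sars, Cars, Iars, Gars and Nars. Of the other 9 cytosolic genes none rose and 5 fell: Farsa, Kars, Vars, Dars and Hars. Among the mitochondrial genes 2 rose (Lars2 and Iars2) and 6 fell (Pars2, Cars2, Vars2, Rars2, Hars2 and Aars2). A gene was called at a Benjamini-Hochberg adjusted p under 0.05 in edgeR's quasi-likelihood test over 11568 genes. Over all genes tested, 30.1% were called higher and 29.6% lower, so that 9 rises and 11 falls among 36 synthetases are near the background. With library totals in place of TMM scaling, Eprs was also called lower (log2 -0.06, adjusted p = 0.0300), and within sequencing lane 6 Qars was called higher (log2 0.09, adjusted p = 0.0496). The median log2 fold change was 0.16 for the ATF4 targets, -0.09 for the other cytosolic genes and -0.11 for the mitochondrial genes, against -0.01 for all genes tested. Most changes were small: of the 20 called members, 2 were also at least 1.5-fold apart, Lars2 upward and Pars2 downward. The Lars2 value rested on 1 library, shPHGDH replicate 1.

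Tars, which charges threonine, rose most among the cytosolic genes. It was at 262, 268 and 269 CPM in shSCR and at 384, 386 and 384 CPM in shPHGDH. The groups did not overlap, and the log2 fold change was 0.53 (SE 0.03, adjusted p = 4.3e-16). Tars lies on GRCm38 chromosome 15 from 11382301 to 11399665, and the median gene of that chromosome was itself 0.28 higher on the log2 scale in shPHGDH, which leaves 0.25 for Tars relative to that median. Wars, the tryptophan enzyme (chromosome 12, 108860030 to 108894174), was at 113, 114 and 109 CPM in shSCR and at 145, 157 and 148 CPM in shPHGDH. All 3 shPHGDH libraries lay above all 3 shSCR libraries, with a log2 fold change of 0.42 (SE 0.04, adjusted p = 5.7e-11).

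Sars, on chromosome 3 from 108424865 to 108445209, charges serine, the product of the pathway that PHGDH starts. It was at 191, 197 and 191 CPM in shSCR and at 253, 256 and 258 CPM in shPHGDH, with no overlap (log2 0.41, SE 0.03, adjusted p = 1.8e-12). Cars, the cysteine enzyme (chromosome 7, 143557230 to 143600090), was at 114, 115 and 114 CPM in shSCR and at 145, 152 and 141 CPM in shPHGDH. Its groups were also apart (log2 0.35, SE 0.03, adjusted p = 1.0e-09), while the median of its chromosome, chromosome 7, was -0.07. Iars, the isoleucine enzyme, was at 297, 295 and 286 CPM in shSCR and at 371, 367 and 360.4 CPM in shPHGDH (log2 0.32, SE 0.03, adjusted p = 2.9e-11). The median of chromosome 13, which carries Iars, was 0.25, and the difference left for Iars was 0.08. Gars, the glycine enzyme, was at 373, 372 and 367 CPM in shSCR and at 416, 421 and 403 CPM in shPHGDH. Its rise of 0.16 (SE 0.03, adjusted p = 5.2e-06) was larger than the spread between replicates, and so was that of Nars, the asparagine enzyme, at 0.15 (SE 0.02, adjusted p = 4.0e-06). The 4 remaining genes of this list, Aars, Eprs, Mars and Yars, did not pass the test (log2 -0.02 to 0.06). Relative to the median of its chromosome, the value was 0.25 for Aars, 0.01 for Eprs, 0.20 for Mars and 0.27 for Yars, and for Nars it was 0.29 in place of 0.15. Wars, Sars, Cars and Gars were at 0.33, 0.28, 0.43 and 0.17 on the same scale.

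**Figure D1:**
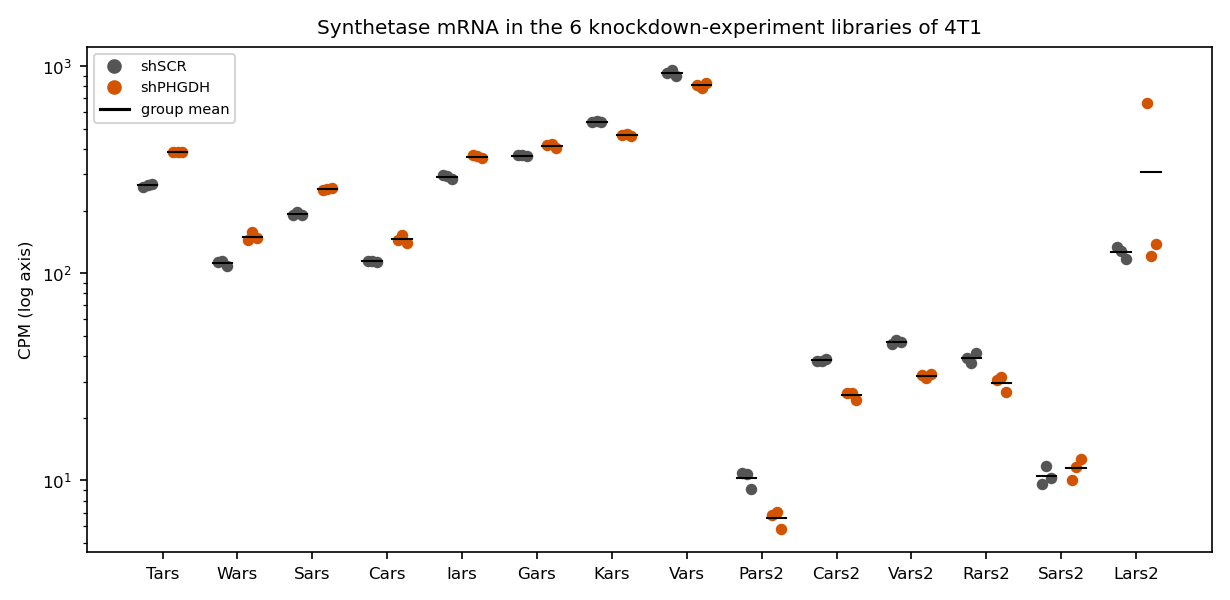
CPM on a log axis for 14 synthetase genes in the 3 shSCR (grey) and 3 shPHGDH (orange) libraries, with a black line at each group mean. Tars, Wars, Sars, Cars, Iars and Gars sit higher in all 3 shPHGDH libraries, the mitochondrial genes Pars2, Cars2, Vars2 and Rars2 sit lower, and 1 shPHGDH library alone carries Lars2 to 663 CPM.

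Some of the ATF4 target members hold the same letters near their start. The search itself used no expression values, but the list of ATF4 targets was chosen with earlier results of these data known. In each RefSeq promoter of GRCm38.p6, 250 bases before to 50 after the start, the composite element bound by ATF4 with C/EBP partners was searched as TGATGNAA and, for the other strand, TTNCATCA. A promoter was listed for 27 members. None was listed for Cars, Nars and Wars, which rose in the knockdown, or for Hars, Lars, Rars, Vars, Hars2 and Pars2. Of the 27 listed, 5 held a match: Aars, Gars, Iars, Tars and Yars. All 5 were among the 8 ATF4 targets with a promoter, and there was none among 5 other cytosolic and 14 mitochondrial genes. Of all 32851 promoters 3.97% held a match, so few or none would be expected among the 5 and 14 genes without one. Whether such matches helped to name the ATF4 targets was not checked, so match and list may not be independent. The stretches below show 3 of the 5 promoters with a match, chosen because these genes also rose in the knockdown. They run from 100 bases before the RefSeq start to 20 after it, 5′ to 3′ on the gene's strand, with the match in capitals.
Tars (chr15:11399639-11399758, minus strand): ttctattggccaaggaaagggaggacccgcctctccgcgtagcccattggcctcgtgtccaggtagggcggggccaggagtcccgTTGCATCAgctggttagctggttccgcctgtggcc
Iars (chr13:49682030-49682149, plus strand): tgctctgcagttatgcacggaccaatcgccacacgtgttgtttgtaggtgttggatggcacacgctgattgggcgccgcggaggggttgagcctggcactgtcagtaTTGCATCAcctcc
Gars (chr6:55037901-55038020, plus strand): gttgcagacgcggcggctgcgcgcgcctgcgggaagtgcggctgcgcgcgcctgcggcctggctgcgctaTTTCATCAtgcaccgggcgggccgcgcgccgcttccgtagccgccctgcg
Counted from the start as 1, the match covers positions -15 to -8 in Tars, 8 to 15 in Iars and -30 to -23 in Gars, in each case on the strand opposite to the gene. Aars held 2 matches, at -112 to -105 and at 10 to 17, and Yars held 1 on its own strand at 4 to 11. Positions depend on the start used: GENCODE vM21 begins Iars at 49682100, upstream of the RefSeq start, and positions counted from it would be larger. A match is not a measured binding site. Aars and Yars hold the letters and did not pass the test in the knockdown, while Sars rose with no match in this window.

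Most other genes of the amino acid response rose with the ATF4 targets. Of 10 such genes 7 rose, 1 fell and 2, Ddit3 and Slc3a2, were not called. Over all genes tested 30.1% were called higher and 29.6% lower. Chromosome medians were not taken off the values in this paragraph. Atf4 itself rose by 0.56 on the log2 scale (SE 0.03, adjusted p = 5.4e-14), and Slc7a11, the cystine transporter, by 1.31 (SE 0.11, adjusted p = 2.3e-11). Trib3 rose by 0.97 and Chac1 by 0.91, while Eif4ebp1 fell by 0.22. Of 15 other genes around tRNA charging 1 rose and 7 fell, against the same shares over all genes. The riser was Eef1e1, a scaffold of the multisynthetase complex (log2 0.45, SE 0.04, adjusted p = 6.6e-11). The largest falls were those of Tarsl2, a further threonyl-tRNA synthetase gene (log2 -0.66), Dtd1, which removes D-amino acids from tRNA (log2 -0.37), and Gatb, a subunit of the mitochondrial enzyme that makes Gln-tRNA (log2 -0.36). All 8 endothelial markers were under 1 CPM in all 6 libraries. Of 6 epithelial markers 2 rose and 4 fell, and their summed level was 2997 to 3100 CPM in shSCR and 3069 to 3099 CPM in shPHGDH. The 2 mesenchymal markers summed to 8263 to 8442 CPM and 6244 to 6332 CPM. The fibroblast marker Pdgfra (5.99 and 8.57 CPM) and the leukocyte marker Cd68 (1.90 and 3.93 CPM) rose. Their part in the synthetase changes was not tested.

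The cytosolic genes outside the ATF4 list fell by little. Farsa, the catalytic subunit of the phenylalanine enzyme, was at 149, 152 and 139 CPM in shSCR and at 125, 128 and 126 CPM in shPHGDH. The groups did not overlap (log2 -0.21, SE 0.04, adjusted p = 9.3e-06). Farsb, the other subunit, was not called (log2 0.03, SE 0.04, adjusted p = 0.523). Kars, the lysine enzyme, was at 535, 542 and 535 CPM in shSCR and at 464, 469 and 460.4 CPM in shPHGDH, again apart (log2 -0.21, SE 0.02, adjusted p = 4.5e-09). Farsa and Kars both lie on chromosome 8, whose median gene was at -0.25, and relative to it they were at 0.04 each. Hars changed sign in the same way, from -0.09 to 0.05 relative to chromosome 18, and 8.0% of its annotated exon bases overlap Hars2 on the other strand. Leaving out shSCR replicate 3, shPHGDH replicate 1 or shPHGDH replicate 3 ended the Hars call (adjusted p = 0.0722, 0.0522 and 0.0748). Vars (log2 -0.19) and Dars (log2 -0.13) stayed below the medians of chromosomes 17 and 1, by 0.14 and 0.11. Lars, Qars, Rars and Farsb were not called, at 0.19, -0.07, 0.07 and 0.05 relative to their chromosomes.

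**Figure D2:**
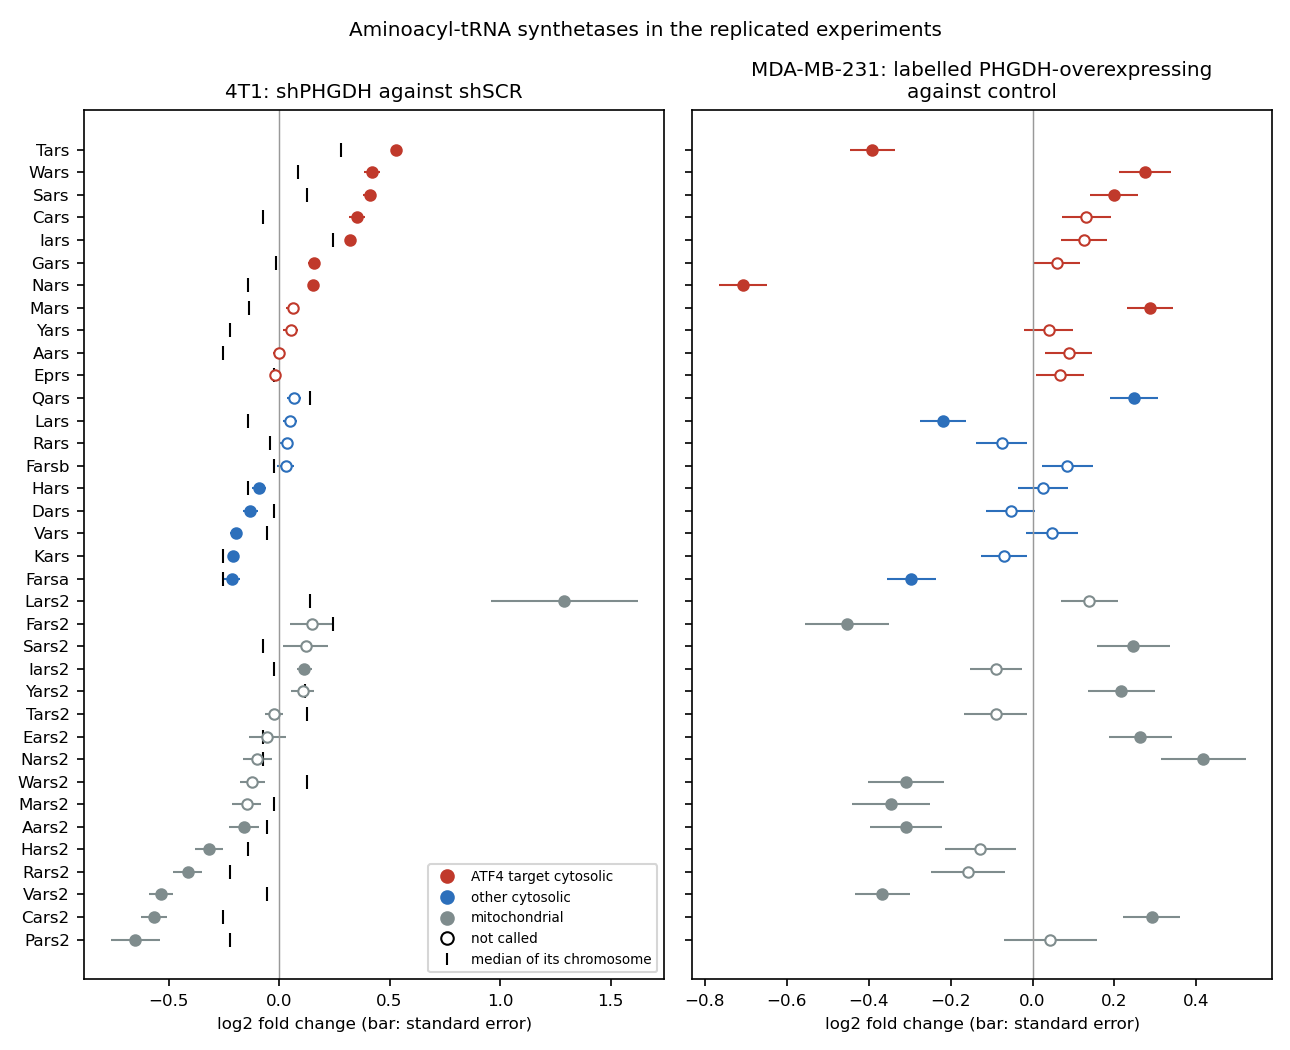
Log2 fold change with its standard error for the 36 members in the 4T1 knockdown (left) and in the MDA-MB-231 libraries labelled PHGDH-overexpressing (right), ordered by the left panel within each group; filled points were called. In the knockdown the ATF4 targets (red) lie at or right of 0 apart from Eprs and Aars just left of it, with black ticks marking the median gene of each member's chromosome, whereas in MDA-MB-231 the same genes fall on both sides.

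The mitochondrial synthetases that fell included those for proline, cysteine, valine, arginine and histidine. Pars2, the proline enzyme (chromosome 4, 106651069 to 106655282), had the largest fall and, among the members that fell, the lowest level. It was at 10.9, 10.7 and 9.12 CPM in shSCR and at 6.82, 7.08 and 5.80 CPM in shPHGDH. The groups were apart (log2 -0.65, SE 0.11, adjusted p = 1.4e-05). Within sequencing lane 6 the value was -0.49, and less the median of chromosome 4 it was -0.43. Cars2 was at 37.6, 37.8 and 38.7 CPM in shSCR and at 26.5, 26.4 and 24.6 CPM in shPHGDH (log2 -0.56, SE 0.06, adjusted p = 4.3e-09). Less the median of chromosome 8, its value was -0.31. Vars2 (chromosome 17, 35655634 to 35667592) was at 45.5, 47.7 and 46.4 CPM in shSCR and at 32.4, 31.1 and 32.7 CPM in shPHGDH (log2 -0.53, SE 0.05, adjusted p = 1.8e-09), and the median of its chromosome was -0.05. Rars2 was at 38.9, 37.1 and 41.4 CPM against 30.5, 31.7 and 26.8 CPM (log2 -0.41, SE 0.06, adjusted p = 3.8e-06), of which the median of chromosome 4 was -0.22. Hars2 was at 33.3, 36.6 and 36.1 CPM against 30.5, 28.3 and 26.8 CPM (log2 -0.32, SE 0.06, adjusted p = 9.6e-05), and less the median of chromosome 18 its value was -0.18. In each of these genes every shPHGDH library lay below every shSCR library. They were picked as called members with the largest falls, and the share of all genes with groups apart is not given here.

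The remaining mitochondrial calls were weak or rested on 1 library. Aars2 was called at -0.16 (adjusted p = 0.0486), and at -0.02 within lane 6 it was not (adjusted p = 0.853). The call was also lost without shSCR replicate 1 or 2 (adjusted p = 0.168 and 0.164) and without shPHGDH replicate 1 or 2 (adjusted p = 0.112 and 0.151). Iars2 rose by 0.11 (SE 0.03, adjusted p = 0.0043), a call lost with library totals in place of TMM (log2 0.07, adjusted p = 0.0664). Of its annotated exon bases 22.9% overlap Rab3gap2 on the other strand, and whether counting used strand was not given in the sources used here. Sars2, the mitochondrial serine enzyme, was at 9.64, 11.7 and 10.3 CPM in shSCR and at 10.0, 11.6 and 12.6 CPM in shPHGDH, so the groups overlapped (log2 0.12, SE 0.10, adjusted p = 0.312). Ears2, Fars2, Mars2, Nars2, Tars2, Wars2 and Yars2 were not called (log2 -0.15 to 0.15).

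Lars2, the mitochondrial leucine enzyme (chromosome 9, 123366927 to 123462666), had the largest fold change of all members, and the value rested on shPHGDH replicate 1. It was at 134, 128 and 117 CPM in shSCR and at 663, 122 and 138 CPM in shPHGDH. The first shPHGDH library stood far above the other 5, which overlapped (log2 1.29, SE 0.33, adjusted p = 0.0015). Without that library the log2 fold change was 0.06 (adjusted p = 0.329). The ribosomal RNA precursor gene Rn45s was high in the same library, at 16828 CPM against 1831 to 2279.9 CPM in the other 5, as was the small RNA gene Mir6236, at 131 CPM against 12.9 to 18.5 CPM. Of 9607 genes with at least 5 CPM in shPHGDH, these 3 were over 2-fold higher in replicate 1 than in the mean of replicates 2 and 3. The part of ribosomal RNA in the Lars2 counts was not tested. Without that library 8 members were higher and 9 lower.

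Lane 5 held 2 shSCR libraries and no shPHGDH library, so the comparison was repeated within lane 6, where 1 shSCR library met 3 of shPHGDH and the lone library was assumed to vary like the others. In lane 6 the log2 fold change was 0.52 for Tars, 0.46 for Wars, 0.43 for Sars, 0.36 for Cars, 0.35 for Iars, 0.17 for Gars and 0.15 for Nars, all still called, and 10 members were higher and 11 lower. Farsa was at -0.13 in place of -0.21 (adjusted p = 0.0049), and Mars2 was called there, at -0.23 in place of -0.15 (adjusted p = 0.0225).

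In MDA-MB-231 the members went both ways in each group. Of the 36 members 9 rose, 9 fell and 18 were not called, where 21.6% of the 17663 genes tested rose and 22.9% fell. The ATF4 targets gave 3 rises (MARS, WARS and SARS) and 2 falls (NARS and TARS). The other cytosolic genes gave 1 rise (QARS) and 2 falls (FARSA and LARS), and the mitochondrial genes 5 rises and 5 falls. The median log2 fold change was 0.09 for the ATF4 targets, -0.05 for the other cytosolic genes and -0.09 for the mitochondrial genes, against -0.01 for all genes tested.

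NARS, the asparagine enzyme, fell most and was the 1 called member at least 1.5-fold apart. It was at 139.8, 139 and 141 CPM in control and at 88.1, 87.3 and 82.1 CPM in the libraries labelled PHGDH-overexpressing. The groups lay far apart (log2 -0.71, SE 0.06, adjusted p = 2.7e-09). TARS was at 379, 369 and 396 CPM against 286, 298 and 288 CPM, also without overlap (log2 -0.39, SE 0.06, adjusted p = 5.2e-06). FARS2, the mitochondrial phenylalanine enzyme, was at 18.4, 16.6 and 17.5 CPM against 11.4, 14.5 and 12.3 CPM (log2 -0.45, SE 0.10, adjusted p = 0.0010). VARS2 was at 67.0, 67.7 and 69.1 CPM against 51.9, 50.6 and 55.6 CPM (log2 -0.37, SE 0.07, adjusted p = 0.00011). MARS2, the mitochondrial methionine enzyme, was at 16.8, 15.4 and 15.7 CPM against 12.8, 12.5 and 12.4 CPM (log2 -0.35, SE 0.09, adjusted p = 0.0050). In all 5 of these genes, picked as called members with the largest falls, each labelled library was below each control library. The share of all genes with groups apart is not given here. AARS2 (log2 -0.31), WARS2 (log2 -0.31), FARSA (log2 -0.30) and LARS (log2 -0.22) also fell. The WARS2 call was lost without labelled replicate 1 (adjusted p = 0.0670).

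Among the rises NARS2, the mitochondrial asparagine enzyme, was largest, at 12.8, 13.4 and 13.7 CPM in control and at 18.9, 19.1 and 15.1 CPM in the labelled libraries (log2 0.42, SE 0.10, adjusted p = 0.0022). It rose where its cytosolic counterpart fell. CARS2 was at 41.1, 44.4 and 39.8 CPM against 51.4, 50.6 and 51.3 CPM (log2 0.29, SE 0.07, adjusted p = 0.0017). MARS was at 182, 192 and 188 CPM against 223, 225 and 237 CPM (log2 0.29, SE 0.06, adjusted p = 0.00026). The groups were apart in all 3 genes, which were picked as called members. WARS was at 123, 123 and 129.6 CPM against 149, 142 and 164 CPM (log2 0.27, SE 0.06, adjusted p = 0.0012). EARS2, the mitochondrial glutamate enzyme, was at 28.7, 25.8 and 26.5 CPM against 31.5, 32.5 and 33.4 CPM (log2 0.26, SE 0.08, adjusted p = 0.0082). The EARS2 call was lost without control replicate 2 (adjusted p = 0.0527). QARS rose by 0.25 and YARS2 by 0.22, the latter lost without control replicate 2 or 3 (adjusted p = 0.196 and 0.0645) and without labelled replicate 1 (adjusted p = 0.0966).

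**Figure D3:**
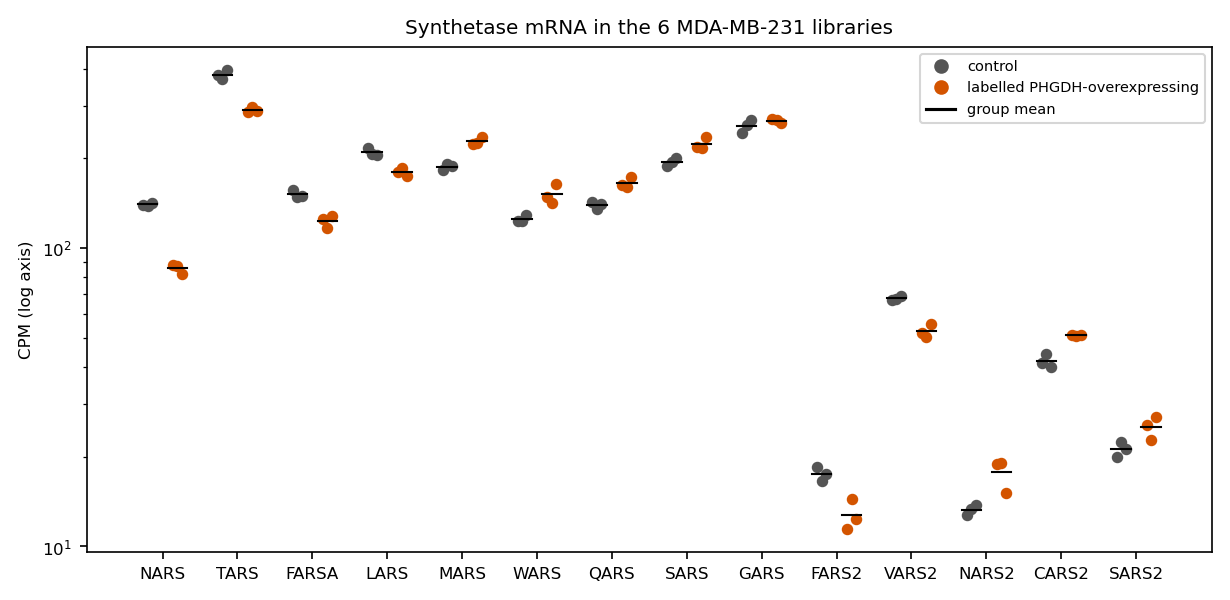
CPM on a log axis for 14 synthetase genes in the 3 MDA-MB-231 control libraries (grey) and the 3 labelled PHGDH-overexpressing (orange), with a black line at each group mean. NARS falls from 139 to 141 CPM to 82.1 to 88.1 CPM while NARS2 sits higher, and the GARS groups overlap.

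The serine enzymes rose in the labelled libraries. SARS was at 189, 194 and 201 CPM in control and at 218, 216 and 236 CPM in the labelled libraries, with no overlap (log2 0.20, SE 0.06, adjusted p = 0.0080). SARS2 was at 20.02, 22.4 and 21.23 CPM against 25.6, 22.8 and 27.2 CPM, again apart by a small gap (log2 0.25, SE 0.09, adjusted p = 0.0269). The SARS2 call was lost in DESeq2 (adjusted p = 0.0562), without control replicate 1 or 3 (adjusted p = 0.0984 and 0.0630) and without labelled replicate 1 or 3 (adjusted p = 0.0779 and 0.124). GARS was at 243, 259 and 269 CPM against 270.1, 269.7 and 264 CPM, which overlapped (log2 0.06, SE 0.06, adjusted p = 0.430).

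In the same libraries 6 of 10 amino acid response genes rose and 1 fell, where 21.6% of all genes tested rose and 22.9% fell. TRIB3 rose by 0.95 (SE 0.07, adjusted p = 8.0e-10), DDIT3 by 0.63 and SLC7A11 by 0.53, while CHAC1 fell by 0.79 and ATF4 was not called (log2 0.05, SE 0.06, adjusted p = 0.539). Of 14 other tRNA charging genes found, 4 rose and 3 fell. GATB (log2 0.36) and XPOT, which exports tRNA from the nucleus (log2 0.23), were among those that rose. SEPSECS, which completes selenocysteine on its tRNA (log2 -0.60), EEF1E1 (log2 -0.49) and GATC (log2 -0.20) fell. Of 8 endothelial marker genes 4 were tested, of which 1 rose and 3 fell; their summed level was 156 to 159 CPM in control and 123 to 131 CPM in the labelled libraries, and CDH5 was at 0. The 6 epithelial markers summed to 1063 to 1086 CPM in control and 1450 to 1633 CPM in the labelled libraries, and the 2 mesenchymal markers to 3835 to 4128 CPM and 4956 to 5238 CPM. Their part in the result was not tested.

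The 2 replicated experiments shared no library, and PHGDH mRNA was lower in the second group of each. In both, 8 members were called, 40.0% of the 20 called in 4T1 and 44.4% of the 18 called in MDA-MB-231. Since 21.6% of all genes tested were called higher and 22.9% lower in MDA-MB-231, this share is near the background. Of the 8 members 5 went the same way: Sars and Wars rose, and Farsa, Vars2 and Aars2 fell. The other 3 went opposite ways: Tars and Nars rose in 4T1 and fell in MDA-MB-231, and Cars2 fell in 4T1 and rose in MDA-MB-231. The falls of Farsa and Aars2 in 4T1 did not hold in every setting. Less the median of chromosome 8, Farsa was at 0.04 on the log2 scale. Aars2 was not called in DESeq2 (adjusted p = 0.181), and within lane 6 its log2 value was -0.02. PHGDH went against the MDA-MB-231 labels, and with those groups exchanged 3 would go the same way and 5 opposite ways. These differences between lines were not tested.

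Set beside each other by amino acid, the cytosolic and mitochondrial genes formed 17 pairs, with Fars2 paired to both Farsa and Farsb and Eprs to both Ears2 and Pars2. In the knockdown both genes were called in 4 pairs, and 3 of these moved together: Iars with Iars2 upward, and Hars with Hars2 and Vars with Vars2 downward. The Iars2 call was lost with library totals (adjusted p = 0.0664) and the Hars call in DESeq2 (adjusted p = 0.0797). Less the median of chromosome 18, Hars was at 0.05 and Hars2 at -0.18 on the log2 scale, so that pair then went opposite ways. Cars and Cars2 moved apart, at 0.35 and -0.56 on the log2 scale. In MDA-MB-231 both genes were called in 5 pairs, of which 2 moved together (SARS with SARS2, FARSA with FARS2) and 3 apart (MARS with MARS2, NARS with NARS2, WARS with WARS2). The SARS2 call was lost in DESeq2 (adjusted p = 0.0562) and the WARS2 call without labelled replicate 1 (adjusted p = 0.0670). Members of the multisynthetase complex, 8 of the cytosolic genes, gave 1 rise and 2 falls in the knockdown and 2 rises and 1 fall in MDA-MB-231. The 12 free cytosolic genes gave 6 rises and 3 falls, then 2 rises and 3 falls. By the fold of the catalytic domain, class I (19 genes) gave 5 rises and 4 falls in the knockdown and class II (17 genes) 4 rises and 7 falls. In MDA-MB-231 class I gave 6 rises and 4 falls and class II 3 rises and 5 falls. Over all genes tested 30.1% rose and 29.6% fell in the knockdown, and 21.6% rose and 22.9% fell in MDA-MB-231.

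Each co-culture condition was 1 library, so its ratios have no replicate check and no test, and their 95% intervals (exact, conditional on the summed counts) cover counting error only. A member was counted as higher or lower when its CPM ratio was past 1.5-fold and the mean of both libraries was at least 5 CPM. In 4T1 grown with Bend3, 16 of 20 cytosolic synthetases were lower than in 4T1 alone, 1 was higher and 3 lay within 1.5-fold. Over all 10137 genes at that level 25.1% were lower and 23.0% higher. The median log2 ratio was -1.35 for the cytosolic genes, against -0.04 for all genes. Of the ATF4 targets 10 of 11 were lower (median -1.62), and of the other cytosolic genes 6 of 9 (median -0.65).

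Aars, the alanine enzyme, was lowest in ratio, at 141 CPM with Bend3 and 649 CPM alone (623 and 2908 counts). It was 4.62-fold lower (interval 4.23 to 5.04), with 14.3% of its annotated exon bases shared with Exosc6 on the same strand. Wars was at 30.2 CPM against 139 CPM, 4.58-fold lower (3.80 to 5.57). Tars was at 174 CPM against 770.1 CPM, 4.42-fold lower (4.08 to 4.78). Lars (3.93-fold), Yars (3.77-fold), Nars (3.54-fold), Rars (3.26-fold) and Iars (3.08-fold) were also more than 3-fold lower. Sars was at 218 CPM against 545 CPM, 2.50-fold lower (2.32 to 2.69), and Gars at 190.1 CPM against 431 CPM, 2.27-fold lower (2.09 to 2.46).

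A few cytosolic members stood apart in 4T1. Qars, the glutamine enzyme, was the 1 that was higher, at 179.5 CPM against 104 CPM, or 1.72-fold (1.53 to 1.93). Kars was at 247 CPM against 258 CPM, a ratio of 0.957 whose interval (0.880 to 1.04) includes 1. Dars and Cars were within 1.5-fold, at ratios of 0.843 and 0.768.

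The mitochondrial genes were mixed in 4T1. Of 13 at the minimum level 5 were lower, 3 higher and 5 within 1.5-fold (median log2 ratio -0.27). Mars2, Wars2, Nars2, Yars2 and Hars2 were lower (log2 ratio -1.66 to -0.66). Vars2 was at 8.80 CPM with Bend3 and at 2.45 CPM alone, from 39 and 11 counts, 3.58-fold higher (1.80 to 7.76). It reached the mean of 5 CPM only through the co-culture library, so its count as higher is set by that filter, and 2 of the higher genes do not depend on it. Rars2 was at 23.0 CPM against 14.7 CPM, 1.56-fold higher (1.14 to 2.16), and Ears2 1.52-fold higher (1.11 to 2.08). Sars2 (22 and 19 counts), Pars2 and Aars2 were below 5 CPM and were not counted.

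The amino acid response genes were lower in 4T1 together with the synthetases. All 10 were past 1.5-fold (median log2 ratio -2.23), with Trib3 at -3.75, Ddit3 at -2.92, Chac1 at -2.60, Asns at -2.45 and Atf4 at -1.85. Of 13 other tRNA charging genes at the minimum level 7 were lower and none higher, led by Xpot (-2.04), Aimp2 (-1.41) and Qrsl1 (-1.25). The 8 endothelial markers summed to 42.2 CPM in 4T1 alone and 118 CPM in 4T1 with Bend3, against 7206 CPM in Bend3 alone. The 6 epithelial markers summed to 1213 CPM in 4T1 alone and 1673 CPM in 4T1 with Bend3, the 3 fibroblast markers to 4.91 and 36.1 CPM, and the 2 mesenchymal markers to 2965 and 5968 CPM. The part of these differences in the synthetase ratios was not tested.

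**Figure D4:**
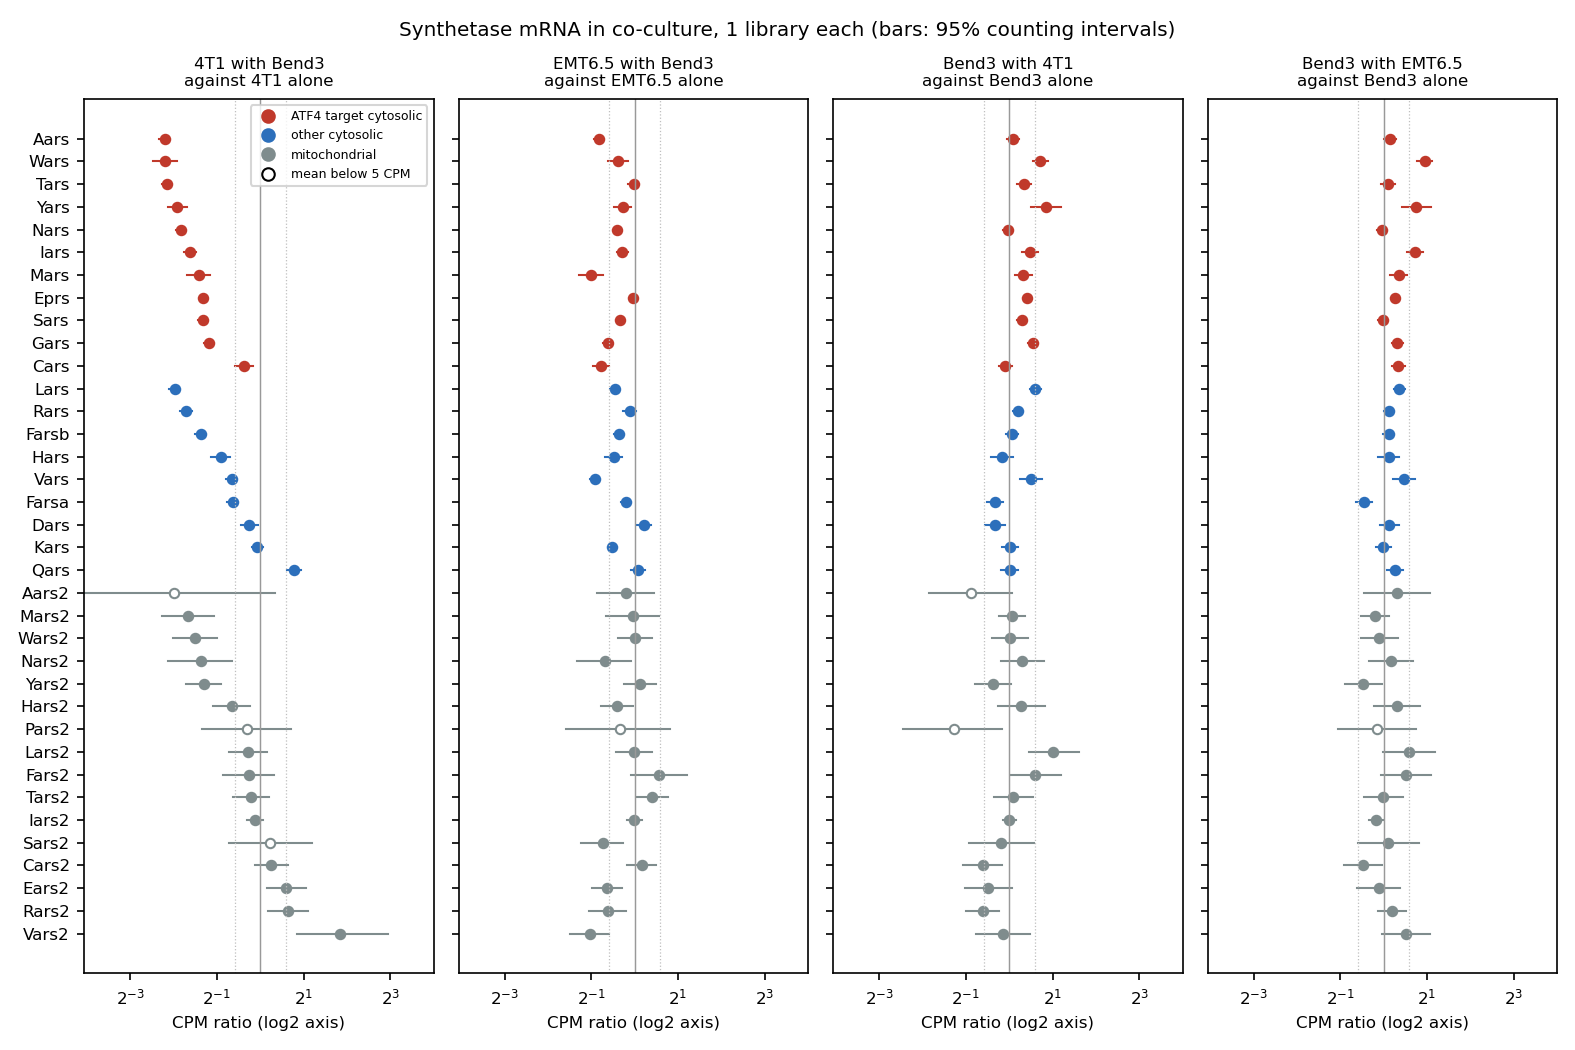
CPM ratio on a log2 axis for the 36 members in the 4 co-culture comparisons, with 95% counting intervals and dotted lines at 1.5-fold; open points were below 5 CPM. In 4T1 with Bend3 the ATF4 targets (red) are spread between 1.30-fold and 4.62-fold lower, in EMT6.5 they are at most 2.02-fold lower, and in both Bend3 panels most members lie within the dotted lines.

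In EMT6.5 grown with Bend3, 5 of 20 cytosolic synthetases were lower, none higher and 15 within 1.5-fold, where 17.2% of 10212 genes were lower and 13.3% higher. The median log2 ratio was -0.37 for the cytosolic genes and -0.03 for all genes. Mars was at 29.6 CPM against 59.8 CPM alone, 2.02-fold lower (1.67 to 2.45), and Vars at 155 CPM against 292 CPM, 1.88-fold lower (1.73 to 2.05). Aars was at 173 CPM against 304 CPM, 1.76-fold lower (1.63 to 1.91). Cars (1.71-fold) and Gars, at 228 CPM against 351 CPM (1.54-fold, 1.44 to 1.66), were lower as well. Sars was at 311 CPM against 396 CPM, within 1.5-fold (ratio 0.786, 0.739 to 0.835). The cytosolic gene with the highest ratio was Dars, at 112 CPM against 97.1 CPM (1.16-fold).

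Of 15 mitochondrial genes at the minimum level in EMT6.5, 5 were lower and none higher: Vars2, Sars2, Nars2, Ears2 and Rars2. Vars2 was at 11.04 CPM against 22.6 CPM (54 and 183 counts), 2.05-fold lower (1.504 to 2.83). Sars2 was at 10.4 CPM against 17.4 CPM, 1.67-fold lower (1.21 to 2.35). Fars2 (8.18 and 5.56 CPM) and Tars2 (25.8 and 19.4 CPM) had the highest ratios, 1.47 and 1.33. Of the 10 amino acid response genes 5 were lower and none higher, with Chac1 at -3.12 and Asns at -0.77 on the log2 scale.

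Lower in both tumour lines were Aars, Gars, Mars, Vars and Nars2, 23.8% of the 21 members lower in 4T1 and 50% of the 10 lower in EMT6.5. With 21 of 33 members lower in 4T1, sharing 5 of the 10 lower in EMT6.5 is no more than that share. Over all genes 25.1% were lower in 4T1 and 17.2% in EMT6.5, and the share lower in both is not given here. Mars was at 38.3 CPM in 4T1 with Bend3 against 103 CPM alone, and Vars at 189.9 CPM against 299 CPM. Nars2 was at 5.19 CPM against 13.4 CPM in 4T1 and at 6.34 CPM against 10.2 CPM in EMT6.5. Ears2, Rars2 and Vars2 were higher in 4T1 and lower in EMT6.5. The 8 endothelial markers summed to 94.5 CPM in EMT6.5 alone and 91.2 CPM in EMT6.5 with Bend3, with Pecam1 at 6.17 and 17.4 CPM. There 3 fibroblast markers summed to 33.1 and 94.8 CPM and 2 mesenchymal markers to 2977 and 4392 CPM, and their part in these ratios was not tested.

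In the endothelial partner most members lay within 1.5-fold of Bend3 alone. In Bend3 sorted from 4T1 co-culture 5 members were higher and 2 lower, of 34 at the minimum level, where 10.3% of 10050 genes were higher and 7.11% lower. Scaled by library totals, 3 were higher and 2 lower. In Bend3 sorted from EMT6.5 co-culture 3 were higher and none lower, of 35, where 9.30% of 10040 genes were higher and 7.70% lower. Both ratios use the same single Bend3 library grown alone, so they are not independent. Wars was at 80.7 CPM in Bend3 alone, 133 CPM with 4T1 and 155 CPM with EMT6.5, 1.65-fold (1.45 to 1.88) and 1.93-fold (1.70 to 2.18) higher. Yars, the tyrosine enzyme, was at 23.6 CPM alone, 42.6 CPM with 4T1 and 39.8 CPM with EMT6.5, 1.80-fold (1.43 to 2.29) and 1.68-fold (1.33 to 2.14) higher.

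Other members passed 1.5-fold with 1 partner. With 4T1, Lars2 was at 16.5 CPM against 8.18 CPM (2.02-fold, 1.37 to 3.05), Lars was 1.52-fold and Fars2 1.52-fold higher. Pars2, below 5 CPM, had the lowest ratio (2.02 against 4.86 CPM), and Cars2 and Rars2 were 1.53-fold and 1.52-fold lower. With EMT6.5, Iars was at 134 CPM against 81.3 CPM (1.65-fold, 1.45 to 1.87), and the lowest ratios, Cars2 (0.722), Yars2 (0.724) and Farsa (0.729), were within 1.5-fold. Sars was at 263 CPM in Bend3 alone, 321 CPM with 4T1 and 261 CPM with EMT6.5, Gars at 213, 309 and 265 CPM, and Sars2 at 7.07, 6.25 and 7.63 CPM, all within 1.5-fold. The 3 cytosolic genes higher in Bend3 with 4T1 (Lars, Wars and Yars) were lower in the 4T1 cells of that co-culture, as were 16 of all 20 cytosolic genes.

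Wars is also known as a gene induced by interferon, and 7 other interferon genes were read in the same libraries. With 4T1, 6 of 7 such genes were higher in Bend3, among them Isg15 (log2 ratio 1.59) and Ifit3 (1.54). With EMT6.5 none was higher and 3 were lower, among them Ifit3 (-0.65) and Ifit1 (-0.63). The part of interferon in the Wars levels was not tested. Of the 10 amino acid response genes Ddit3 was higher with 4T1 (log2 ratio 0.98) and none with EMT6.5. The epithelial markers in Bend3 summed to 1.55 CPM alone, 31.8 CPM with 4T1 and 6.54 CPM with EMT6.5.

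Per kilobase of annotated exon, the cytosolic genes were expressed well above the mitochondrial ones. The median cytosolic level over the median mitochondrial level was 23.7 in 4T1 alone, 12.1 in EMT6.5 alone and 8.72 in Bend3 alone. In 4T1 alone Nars (153 CPM per kb), Farsb (146) and Gars (138) led, in EMT6.5 alone Gars (113), Farsb (88.8) and Sars (77.1), and in Bend3 alone Rars (84.95), Farsb (69.3) and Gars (68.2). Neighbours in this order cannot be separated, with 1 library each. The highest mitochondrial gene was Yars2 in 4T1 (13.1 CPM per kb) and Iars2 in EMT6.5 and Bend3 (10.2 and 15.7). None of the 20 highest members was mitochondrial in 4T1 or EMT6.5, and 2 were in Bend3, where Yars was the lowest cytosolic gene at 3.98 CPM per kb. The order depends on the length used: per kilobase of the longest transcript the leading genes were Nars, Rars and Farsb in 4T1, Gars, Kars and Nars in EMT6.5 and Rars, Nars and Gars in Bend3, and Iars2 was the highest mitochondrial gene in all 3.

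Within a library the ratio of all counts of the 11 ATF4 targets to those of the other 9 cytosolic genes needs no scaling between libraries. This ratio uses the same counts and the same split as above, so it is no separate support, and chromosome medians were not taken off it. It was 1.08, 1.06 and 1.08 in shSCR and 1.32, 1.34 and 1.32 in shPHGDH (means 1.08 ± 0.0136 and 1.32 ± 0.0123, SD, n = 3 each), with no overlap. In MDA-MB-231 it was 1.74, 1.75 and 1.80 in control and 1.84, 1.82 and 1.85 in the labelled libraries. It was 1.90 in 4T1 alone and 1.15 in 4T1 with Bend3, and 1.36 and 1.35 in EMT6.5. In Bend3 it was 1.66 alone, 1.85 with 4T1 and 1.81 with EMT6.5. The cytosolic genes together took 0.586% ± 0.0049 of counts in shSCR and 0.590% ± 0.0071 in shPHGDH (SD, n = 3 each), with overlapping groups. In MDA-MB-231 they took 0.367% to 0.373% in control and 0.350% to 0.360% in the labelled libraries, which did not overlap. They took 0.771% in 4T1 alone and 0.307% in 4T1 with Bend3, 0.442% and 0.335% in EMT6.5, and 0.277%, 0.322% and 0.324% in Bend3 alone, with 4T1 and with EMT6.5.

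**Figure D5:**
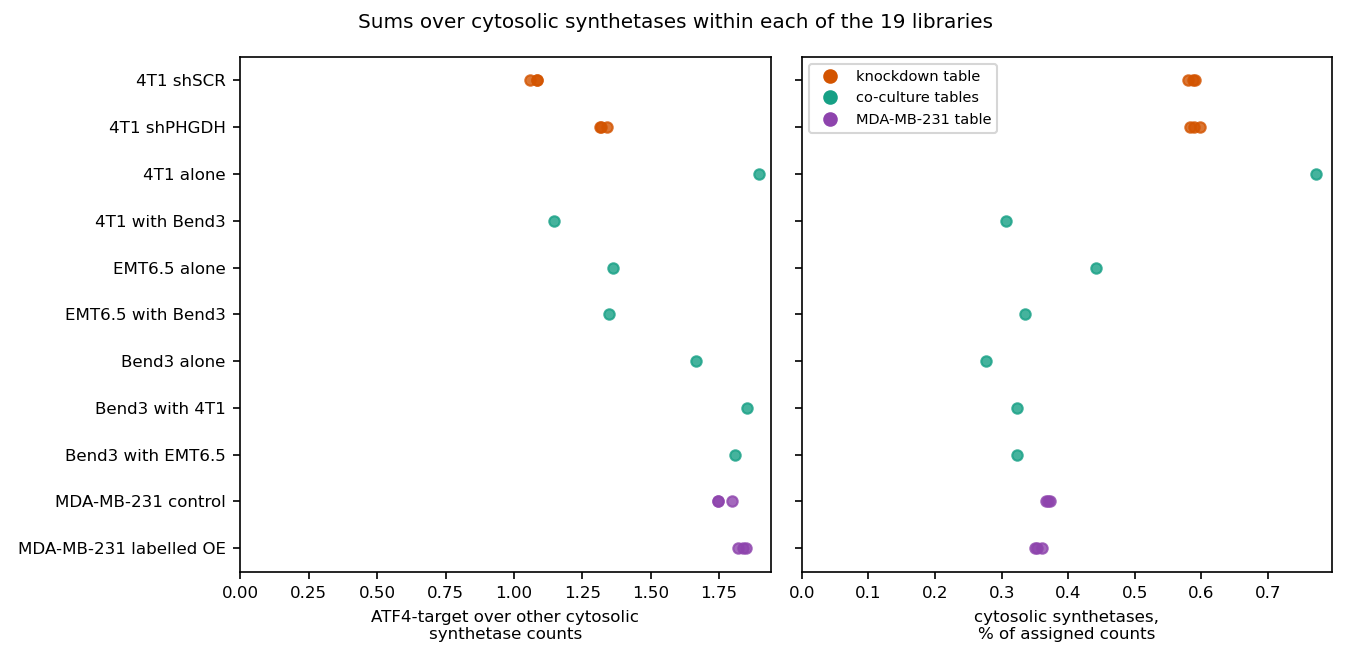
For each of the 19 libraries (1 point each), the summed counts of the ATF4-target synthetases over those of the other cytosolic synthetases (left), and all cytosolic synthetases as a percent of assigned counts (right). The shPHGDH points lie to the right of shSCR on the left panel and beside them on the right panel, and 4T1 alone is highest on both. Both panels use raw counts within each library, and no scaling between libraries or between the 3 kinds of table was applied.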

How the data were processed

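RNA-seq of 19 libraries of cultured lines was analysed. The values are raw read counts per gene as the authors deposited them. The submitters' processing notes name HTSeq, the aligner HISAT2 2.1.0, the trimmer Trim Galore 0.5.0 and GRCm38. Sources used here do not give the human build or the settings of counting. The protocol in the labels states stranded mRNA libraries from 1 µg of RNA, read as 50 bp single ends. Beside the knockdown samples, 10 columns of per-library values matched no sample and were not used, and the human table's SCR columns were read as the control samples. Summary lines were left out of library sizes, and 48.2% to 55.3% of co-culture entries were not unique.

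From these counts each replicated experiment was fitted over all genes with edgeR 4.0.16 in R 4.3.3 (TMM scaling, default filter, quasi-likelihood F-test, Benjamini-Hochberg, called at an adjusted p under 0.05), tested on simulated data first. DESeq2 1.42.0, other scaling and filters, a replicate block, lane and leaving out each library were the alternatives. Co-culture CPM used TMM sizes over the 7 libraries. Lengths, positions and exon overlaps came from GENCODE vM21 on GRCm38, promoters from RefSeq on GRCm38.p6 (27 of 36 members listed). Per-library values were named for the serine and glycine enzymes, for up to 5 called members with the largest change on each side, and in co-culture for the 3 highest and 3 lowest ratios and members past 1.5-fold in both tumour lines or both Bend3 comparisons; other genes with values were chosen after these were seen. The members, the lists and their split into ATF4 targets and others were chosen with earlier results of these data known.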

Additional observations from a re-analysis of the deposited data

Results flagged for a closer look

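Ears2, Rars2 and Vars2 were higher in 4T1 with Bend3 than in 4T1 alone and lower in EMT6.5 with Bend3 than in EMT6.5 alone. The log2 ratio in 4T1 exceeded that in EMT6.5 by 1.24 for Ears2, 1.27 for Rars2 and 2.88 for Vars2. Each ratio compares single libraries, and the difference between the lines was not tested. Vars2 rests on 11 counts in 4T1 alone and 39 in 4T1 with Bend3 and reached the minimum level only through the latter, and 8.5% of its annotated exon bases overlap Gm20483 on the other strand.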

How the results depend on the processing

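Called at an adjusted p under 0.05 and at least 1.5-fold apart were 2 members in the knockdown (1 higher, 1 lower) and 1 in MDA-MB-231 (0 higher, 1 lower). The 1 higher in the knockdown was Lars2, whose value rested on shPHGDH replicate 1. Less the median of its chromosome, the knockdown log2 value was 0.0376 for Farsa, 0.0418 for Kars and 0.0499 for Hars, which reversed their sign. In Bend3 with 4T1, 3 members were higher with library totals, 4 lower at a minimum of 1 CPM, 3 higher and 1 lower at 20 CPM, and 1 higher and 0 lower at 2-fold. In 4T1 with Bend3, 1 was higher at 20 CPM and 1 at 2-fold; in EMT6.5 with Bend3, 6 were lower at 20 CPM and 2 at 2-fold; in Bend3 with EMT6.5, 0 were higher at 2-fold. A higher minimum tests fewer genes; otherwise the cause was not tested.

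Leaving out 1 library at a time gave 17 to 21 called members in the knockdown (8 to 10 higher, 9 to 11 lower) and 15 to 19 in MDA-MB-231 (7 to 10 higher, 8 to 9 lower). DESeq2 called 17 in each. It lost Lars2 (adjusted p = 0.184), Aars2 (0.181) and Hars (0.0797) in the knockdown and SARS2 (0.0562) and YARS2 (0.0688) in MDA-MB-231, where it gained IARS (0.0497). Library totals in place of TMM gave 8 members higher and 14 lower in the knockdown, with Iars2 lost and Eprs, Mars2 and Wars2 gained, and 7 higher and 9 lower in MDA-MB-231. Same-numbered libraries did not deviate together (r from -0.055 to 0.038), which cannot show whether the numbers pair cultures. With the replicate block 19 members were called in the knockdown (9 higher, 10 lower) and 18 in MDA-MB-231 (9 higher, 9 lower). Counts below 50 per library, as for several mitochondrial genes in co-culture, limit those ratios to wide intervals.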
